A study of Mus musculus with 8 samples.

Results

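Major urinary proteins are small lipocalins, barrel-shaped carriers that hold pheromones and other small hydrophobic molecules. Mouse liver makes them in large amounts and secretes them into blood, from which they pass into urine. Their liver expression is known to be higher in males and to depend on pulsatile growth hormone acting through its receptor and STAT5, with contributions from androgen, thyroid hormone and glucocorticoid. The 5 genes described here are Mup1, Mup2, Mup3, Mup4 and Mup5. Mup1, Mup2 and Mup3 are known as liver-expressed genes, whereas Mup4 and Mup5 are known also from glands such as the lacrimal and salivary glands.

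They are 5 of 21441 named genes on the array. Each was found by its symbol among 41174 probes that were not controls, and each had 1 probe with 1 spot per array. The symbols of Mup1, Mup3 and Mup4 stood in the authors' deposited table, and all 5 probes carried a RefSeq accession of their gene. The genes were selected on their log2 ratios in miR-223KO and WT liver on these same arrays, whose difference was already known. It is therefore described here without a test, and nothing is supported with it.

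Liver RNA came from 4 miR-223KO samples and 4 WT samples, all labelled as male, C57BL/6J and fed a high-fat diet for 3 months. The labels give the knockout by name only and do not say whether each sample came from its own mouse, so the spread between samples may be partly technical. Each liver sample was labelled with Cy5 and hybridised to its own 2-colour Agilent array against an assorted mouse total RNA in Cy3, a common reference of mixed tissue. The arrays lay on 2 slides, each with 2 miR-223KO and 2 WT samples, and were scanned slide by slide. miR-223 is a microRNA abundant in myeloid cells. Other genetic differences between the groups were not tested. In whole liver, fewer cells of a type and less RNA per cell cannot be told apart.

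Of the spots that were not controls, 53% to 65.8% were well above background in Cy5 on miR-223KO arrays and 49.5% to 69.8% on WT arrays. The median Cy5 intensity was 93 to 135 on miR-223KO arrays and 79.5 to 187 on WT arrays. Across 25665 probes tested with limma, 1 passed an adjusted p of 0.05 (0.0039%), the protease gene Ctse, while an unadjusted p below 0.05 was found for 1175. The median standard error of a log2 difference was 0.205, and the number of arrays limits the precision.

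The sequence on the array decides which transcripts a Mup probe can see, because the family consists of close copies. The RefSeq gene table of GRCm38.p6 lists 22 Mup genes, all of them on chromosome 4, in a span that holds 2 other protein-coding genes. From one end of the span, Mup4 and Mup6 come first and Mup3 and Mup21 come last, while Mup2 and Mup1 lie in the first part and Mup5 near Mup20. The probe sequences below are those of Mup1, a member, and of Mup6 and the transcript that the authors' table describes as Mup9, both neighbours of the members in the same array of copies. They are shown 5′ to 3′, and capitals mark the longest run that the Mup6 and Mup9 probes share.
Mup1 probe: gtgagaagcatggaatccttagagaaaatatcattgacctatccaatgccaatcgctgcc
Mup6 probe: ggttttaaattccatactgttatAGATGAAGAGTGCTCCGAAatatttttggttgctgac
Mup9 probe: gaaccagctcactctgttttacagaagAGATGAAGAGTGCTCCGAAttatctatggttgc
The shared run is 19 of 60 bases long, and no other pair among the 6 Mup-family probes with a sequence in the authors' table shared more than 7 bases in a row. Which further transcripts of the family each probe binds was not tested, so a value is given for a probe under its gene's name.

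The microRNA for which the knockout is named is shown with its seed, bases 2 to 8, in capitals, from RefSeq (GRCm38.p6, chrX:96242884-96242905, plus strand).
mmu-miR-223-3p: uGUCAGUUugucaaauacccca
The letters that pair with this seed, AACTGAC, occurred in 0 of the 3 member probes with a sequence (Mup1, Mup3 and Mup4), which says only that they are not in those 60 bases.

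For 3 of the members there is an upstream sequence in the RefSeq promoter table, which shows how alike the control regions of the family are. The 250 bases before each annotated start are given for Mup2 (chr4:60139857-60140106), Mup3 (chr4:62087318-62087567) and Mup4 (chr4:59960668-59960917), all on the minus strand of GRCm38.p6. Capitals mark a run of 20 bases present in all 3 and the TATA-box letters TATATAA.
Mup2 promoter: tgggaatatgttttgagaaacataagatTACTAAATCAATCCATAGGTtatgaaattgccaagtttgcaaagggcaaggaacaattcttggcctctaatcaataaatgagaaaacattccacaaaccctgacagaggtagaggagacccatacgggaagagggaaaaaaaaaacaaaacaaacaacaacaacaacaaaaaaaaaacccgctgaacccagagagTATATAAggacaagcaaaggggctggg
Mup3 promoter: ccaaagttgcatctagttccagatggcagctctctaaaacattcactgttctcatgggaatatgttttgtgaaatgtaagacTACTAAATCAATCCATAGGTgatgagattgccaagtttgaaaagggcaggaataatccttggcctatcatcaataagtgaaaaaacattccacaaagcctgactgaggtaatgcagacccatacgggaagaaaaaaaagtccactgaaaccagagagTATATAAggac
Mup4 promoter: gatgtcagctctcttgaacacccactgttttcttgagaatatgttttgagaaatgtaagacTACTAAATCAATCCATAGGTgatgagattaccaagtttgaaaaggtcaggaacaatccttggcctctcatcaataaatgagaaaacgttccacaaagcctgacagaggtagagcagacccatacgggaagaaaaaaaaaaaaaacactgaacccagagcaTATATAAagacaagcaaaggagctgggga
In local alignments Mup3 was 87.1% identical to Mup2 over 170 aligned columns and 87.5% identical to Mup4 over 232 columns, and Mup2 and Mup4 were 78.8% identical over 250 columns. TATATAA, searched on both strands, began 27, 11 and 29 bases before the annotated starts of Mup2, Mup3 and Mup4. It stood in 11 of the 14 Mup windows of the table and in 3.04% of all 32851 windows of the same length. TTCNNNGAA, the core to which STAT5 can bind, stood in 0 of the 14 Mup windows and in 7.02% of all windows. That says nothing on sites outside these 250 bases.

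All 5 member probes lay lower in miR-223KO than in WT liver, by 0.67 to 1.42 on the log2 scale of the ratio of liver over reference. For comparison, 50.6% of all tested probes lay below 0, and the median difference over them was -0.0030. Mup1, Mup2 and Mup3 were about 2.6-fold lower (2.58, 2.61 and 2.67), and Mup4 and Mup5 were 1.59-fold and 1.62-fold lower. Groups did not overlap for Mup1, Mup2 and Mup3, which is 3 of 5 members. Among all probes tested, 1.22% had every miR-223KO value below every WT value and 1.54% had every one above. Because the genes were chosen with this contrast known, nothing is read from that comparison.

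Mup1 encodes one of the abundant liver and urine forms. Its log2 ratio was 1.66, 2.56, 1.12 and 0.45 in miR-223KO replicates 1 to 4, against 2.85, 2.65, 2.82 and 2.94 in WT replicates 1 to 4. On this scale the WT values lay close together and the miR-223KO values spread widely, with replicate 2 just below the WT range and replicate 4 far below it. The means were 1.45 ± 0.89 in miR-223KO and 2.82 ± 0.12 in WT liver (SD, n = 4 each), a difference of -1.37 (SE 0.45).

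Mup2, another liver-expressed copy, read 1.00, 1.28, 0.38 and -0.26 in miR-223KO liver and 1.43, 1.95, 2.45 and 2.10 in WT liver. The highest miR-223KO value, replicate 2, was just under the lowest WT value, replicate 1. The means were 0.60 ± 0.69 in miR-223KO and 1.98 ± 0.42 in WT liver (SD, n = 4 each), a difference of -1.38 (SE 0.40).

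Mup3, which lies between Mup20 and Mup21 near the far end of the cluster, read 1.08, 0.95, 0.45 and 0.34 in miR-223KO liver and 2.51, 2.20, 1.69 and 2.09 in WT liver. This was the widest separation among the members, with a gap between the highest miR-223KO value and the lowest WT value larger than the SD of either group. The means were 0.70 ± 0.36 in miR-223KO and 2.12 ± 0.34 in WT liver (SD, n = 4 each), a difference of -1.42 (SE 0.25).

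Mup4, which lies at the start of the cluster, read 0.61, 1.36, 0.76 and -0.35 in miR-223KO liver and 1.42, 1.55, 1.00 and 1.07 in WT liver. The groups overlapped, since miR-223KO replicate 2 lay above WT replicates 3 and 4. The means were 0.60 ± 0.71 in miR-223KO and 1.26 ± 0.27 in WT liver (SD, n = 4 each), a difference of -0.67 (SE 0.38). It was -0.35 without miR-223KO replicate 4.

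Mup5 read 1.08, 1.91, 1.09 and 0.20 in miR-223KO liver and 2.09, 1.57, 1.63 and 1.79 in WT liver. The groups overlapped here too, because miR-223KO replicate 2 stood above 3 WT values. The means were 1.07 ± 0.70 in miR-223KO and 1.77 ± 0.23 in WT liver (SD, n = 4 each). The difference was -0.70 (SE 0.37), and it was -0.41 without miR-223KO replicate 4.

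**Figure D1:**
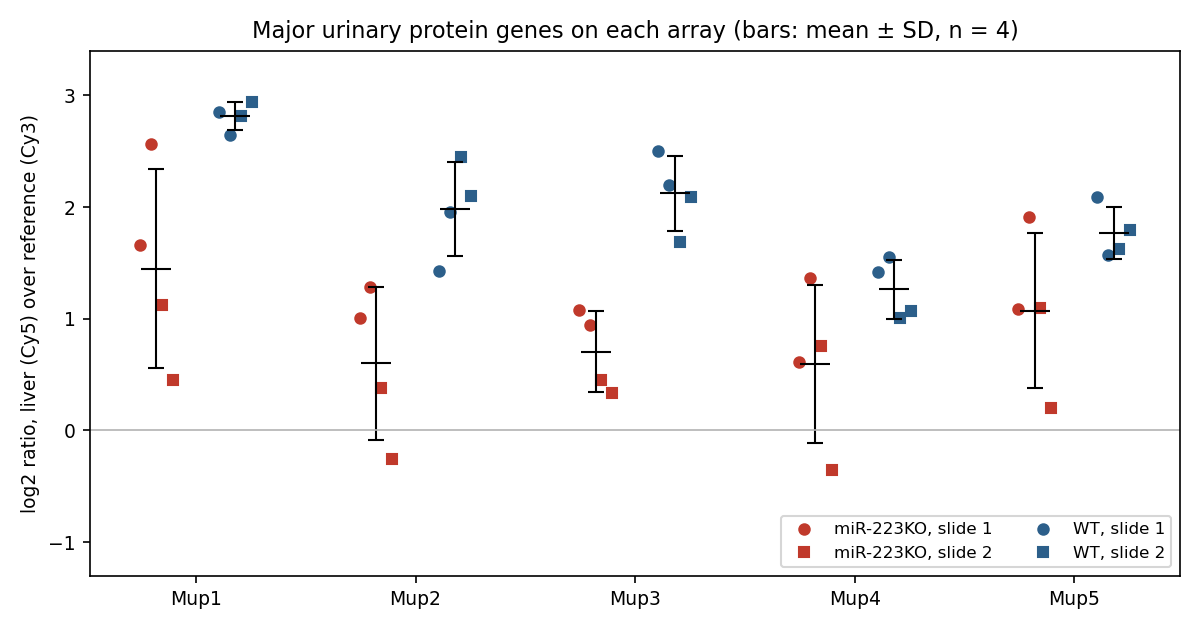
Log2 ratio of liver (Cy5) over reference (Cy3) for Mup1 to Mup5 on each of the 8 arrays, miR-223KO (red) left of WT (blue), circles for slide 1 and squares for slide 2, with bars for the mean ± SD (n = 4). For Mup1, Mup2 and Mup3 every miR-223KO point lies below every WT point, and for Mup4 and Mup5 miR-223KO replicate 2 lies within the WT range.

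Over all 8 arrays the members moved alike, but within the WT arrays they did not all do so. In WT replicates 1 to 4 Mup2 read 1.43, 1.95, 2.45 and 2.10. Mup3 ran the other way there, with 2.51, 2.20, 1.69 and 2.09. The mean log2 ratio of the 5 members was 1.09, 1.61, 0.76 and 0.08 in miR-223KO replicates 1 to 4, against 2.06, 1.98, 1.92 and 2.00 in WT replicates 1 to 4. It averaged 0.88 ± 0.64 in miR-223KO and 1.99 ± 0.06 in WT liver (SD, n = 4 each), and the mean difference was -1.11, or 2.15-fold lower. The closeness of the WT values depended on the normalisation. In the scanner software's own log ratios, taken to log2, the same mean was 0.21 ± 0.50 in miR-223KO and 1.20 ± 0.24 in WT liver (SD, n = 4 each). For Mup1 alone those ratios had an SD of 0.68 in miR-223KO and 0.40 in WT liver, and WT replicate 4, the highest WT value above, was the lowest there. For Mup3 they spread less in miR-223KO (SD 0.13) than in WT liver (SD 0.61). In 4 of the 5 genes miR-223KO replicate 2 was the highest of its group and in all 5 replicate 4 was the lowest. Over the 8 arrays the 10 pairs of members had a Pearson r of 0.73 to 0.94 and a Spearman rho of 0.60 to 0.88. With each group's mean removed, r ran from 0.22 for Mup2 with Mup3 to 0.93 for Mup1 with Mup5. These correlations are descriptions over 8 arrays, and the points of a pair share the array, its normalisation and possible cross-binding between copies. Without removal of the group means, they also include the group difference with which the genes were chosen.

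The difference was present on both slides but unequal in size for some genes. Within slide 1 it was -0.64 for Mup1, -0.55 for Mup2, -1.34 for Mup3, -0.50 for Mup4 and -0.33 for Mup5. Within slide 2 it was -2.09 for Mup1, -2.21 for Mup2, -1.50 for Mup3, -0.83 for Mup4 and -1.06 for Mup5. Mup3 thus had nearly the same difference on both slides, whereas those of Mup1 and Mup2 were more than 1.4 log2 units larger on slide 2. Between slides the miR-223KO values of Mup1 differed by -1.32 (slide 2 minus slide 1) and the WT values by 0.13. Slide and scan parted the arrays in the same way, and their part in the result was not tested beyond these values.

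The Mup spots were among the brightest on the array, which bears on how well they can be measured. Their mean log2 signal over both channels was 14.24 for Mup4 to 16.38 for Mup1, at or above the 99.4th percentile of the tested probes. No member spot was saturated, and all were well above background on all 8 arrays. The scanner software put a non-uniformity flag on 17 of the 40 member spots, 9 on miR-223KO arrays and 8 on WT arrays, 14 of them in Cy5 and 5 in Cy3 (some in both). Mup5 was flagged on 6 arrays, Mup2 on 5, Mup3 on 3, Mup1 on 2 and Mup4 on 1. These spots were kept. Left out, they gave a difference of -2.03 for Mup1 (6 arrays left), -0.69 for Mup2 (3 arrays) and -1.52 for Mup3 (5 arrays). The difference was -0.75 for Mup4 (7 arrays) and -1.01 for Mup5 (2 arrays). Mup2 and Mup5 were thus hardly measured in that setting. For Mup1, the miR-223KO arrays left were replicates 3 and 4, both on slide 2, against all WT arrays. For Mup2 (miR-223KO replicate 1, WT replicates 1 and 2) and Mup5 (replicate 1 of each group), all arrays left were on slide 1. The parts of flag and slide in these values were not told apart. Among the 151 tested probes at least as bright as Mup4, the dimmest member, the median difference was -0.14, with quartiles of -0.34 and 0.08, and 103 of them lay below 0. Bright probes, the 5 members among them, thus lay somewhat lower in miR-223KO. The part of brightness in the members' differences was not tested.

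Part of the difference in the ratio lay in the reference channel. In the scanner's own median intensities, Mup1 had 79578, 108415, 122296 and 131646 in Cy5 on miR-223KO arrays, against 169129, 154871, 141523 and 90974 on WT arrays. In Cy3 the Mup1 spot read 33832, 37830, 128981 and 127807 on miR-223KO arrays, against 19843, 44612, 104922 and 89591 on WT arrays. Unnormalised Cy5 intensities of the groups overlapped for Mup1, and the Cy3 intensities were higher on slide 2 in both genotypes. For Mup4 and Mup5 the unnormalised Cy5 was higher in each miR-223KO than in each WT sample of slide 2. On slide 1 it was lower in each. After loess and normalisation of the mean signals between arrays (Aquantile), the difference of Mup1 was -0.75 in Cy5 and 0.62 in Cy3. It was -0.92 and 0.47 for Mup2, -0.63 and 0.79 for Mup3, -0.62 and 0.05 for Mup4, and -0.33 and 0.37 for Mup5. The mean Cy5 signal was thus lower in miR-223KO for each member. On slide 1, however, Mup5 read 16.11 and 16.76 in miR-223KO against 15.89 and 16.59 in WT (log2 Cy5 after that normalisation). The other members had lower means on each slide, as Mup5 had on slide 2. Almost the whole of the Mup4 difference lay in Cy5, and for Mup3 and Mup5 the larger share lay in Cy3. Every array carried the same kind of reference RNA, and how a difference parts between the channels depends on this normalisation. The share that reflects liver RNA was not tested.

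**Figure D2:**
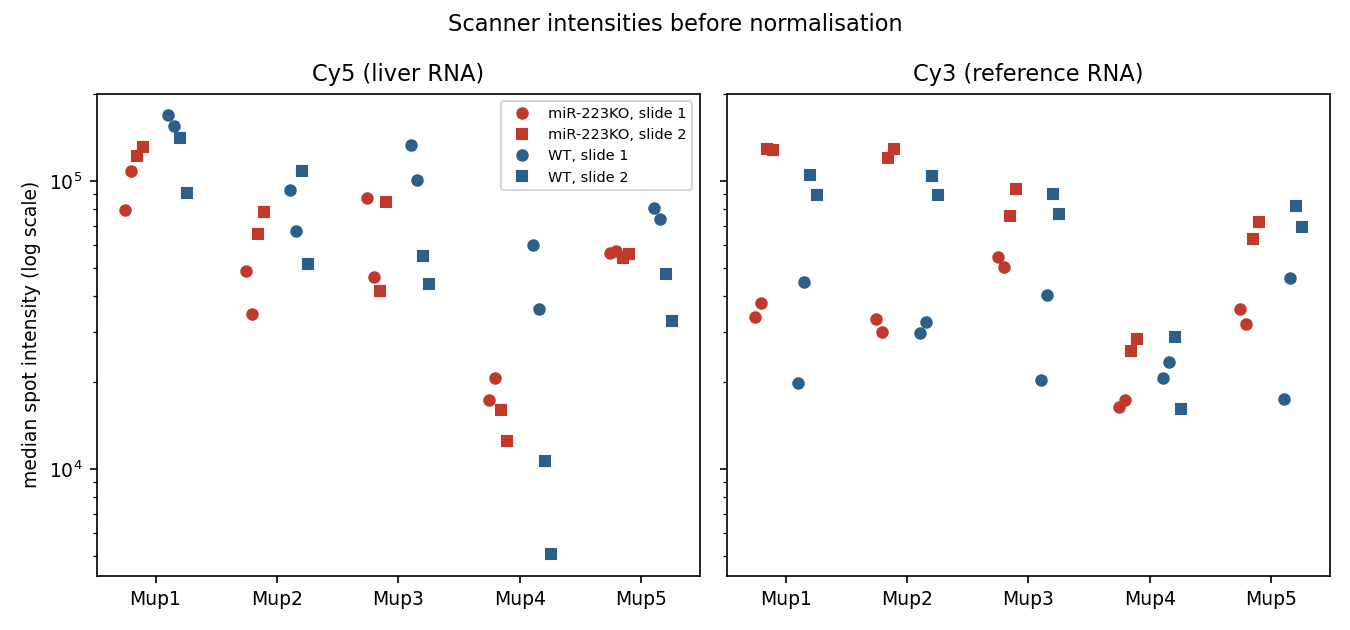
Scanner median intensity of the Mup1 to Mup5 spots on a log axis in Cy5 (liver, left panel) and Cy3 (reference, right panel), miR-223KO (red) left of WT (blue), circles for slide 1 and squares for slide 2. The groups overlap in each unnormalised channel, and Cy3 of Mup1 and Mup2 is higher on slide 2 than on slide 1 in both genotypes.

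The authors' deposited table holds log2 ratios of the software's processed signals. It has 3 of the 5 members, with lower means in miR-223KO for each, and gave no value for Mup2 and Mup5. The authors' deposited table has a log2 fold change of -1.19 for Mup1, -1.22 for Mup3 and -0.60 for Mup4. In the authors' deposited table the groups stayed apart for Mup3, with 0.01 as the highest miR-223KO value and 0.46 as the lowest WT value. They overlapped for Mup1 in the authors' deposited table, where miR-223KO replicate 2 (1.33) lay above WT replicate 4 (1.26). For Mup4 they overlapped as well in the authors' deposited table, with miR-223KO replicate 2 (0.70) above WT replicates 3 (0.38) and 4 (0.47). With each array centred on its median in place of loess, the groups of all 5 members overlapped, and the differences were -0.90 for Mup1, -0.94 for Mup2, -0.98 for Mup3, -0.38 for Mup4 and -0.27 for Mup5.

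**Figure D3:**
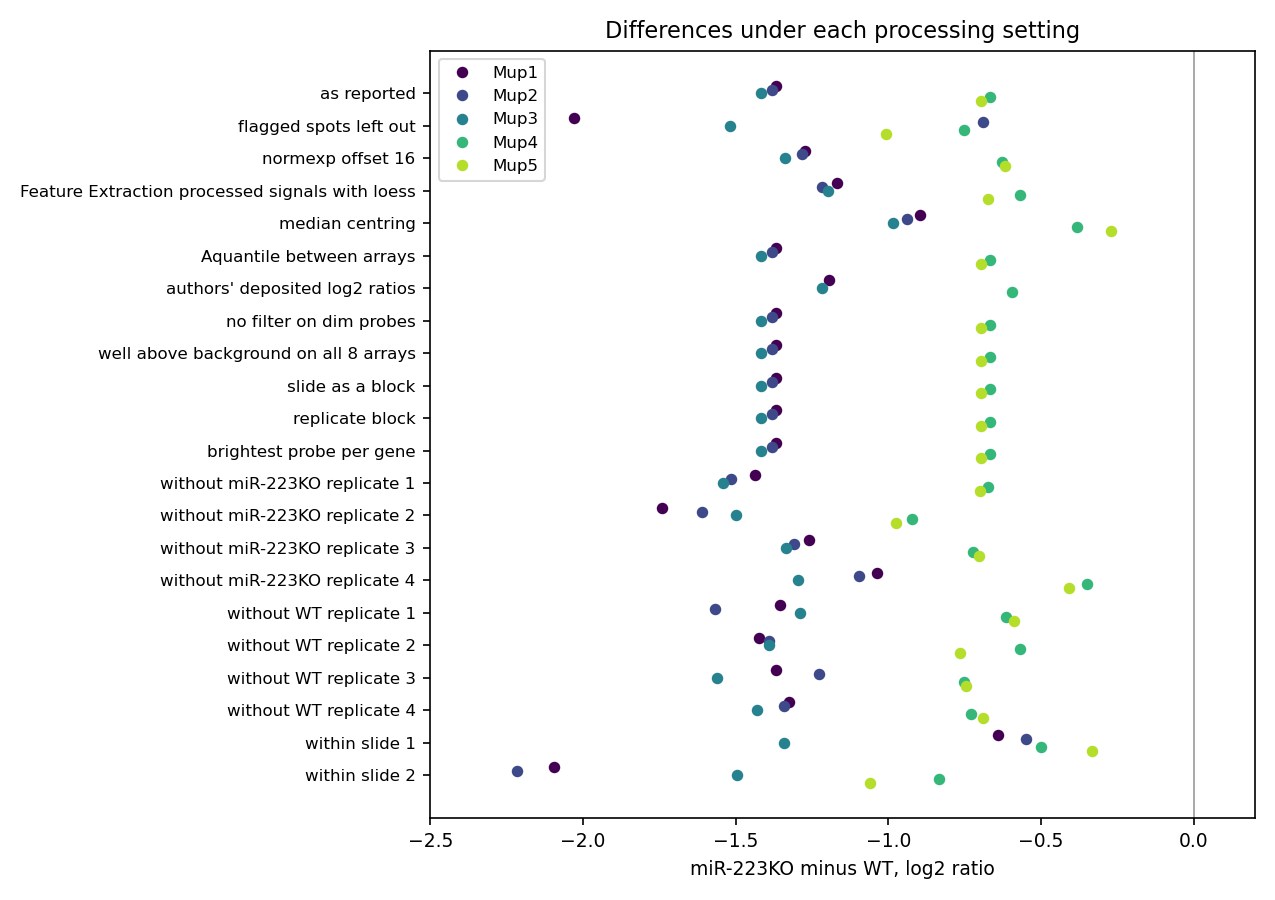
Difference in log2 ratio, miR-223KO minus WT, of Mup1 to Mup5 (colours) under each processing setting and with each sample left out, one line per setting. All points lie below 0, between -2.21 and -0.27, and the values of Mup1 and Mup2 on the single slides and with flagged spots left out lie far from the reported ones.

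Other copies of the family, which were not among the members, were tested in the fit over all probes. Mup6, next to Mup4 in the cluster, averaged -0.02 ± 0.69 in miR-223KO and 1.07 ± 0.33 in WT liver (SD, n = 4 each). Its difference was -1.09 (SE 0.29), and limma gave an unadjusted p of 0.00164 and an adjusted p of 0.868, so it did not pass. The probe described as Mup9 averaged 0.40 ± 0.85 in miR-223KO and 1.48 ± 0.49 in WT liver (SD, n = 4 each), with a difference of -1.08 (SE 0.35, limma adjusted p = 0.984). The probe described as Mup11 averaged -0.43 ± 0.91 in miR-223KO and -0.24 ± 0.66 in WT liver (SD, n = 4 each), with a difference of -0.19 (SE 0.39, limma adjusted p = 0.995). The SEs of genes that are not members are those of limma, whereas the members' SEs come from the SDs of the groups. Calculated as for the members, the SE was 0.38 for Mup6, 0.49 for Mup9 and 0.56 for Mup11. The Mup9 and Mup11 probes carry no symbol and were added after their values were seen. Of these 3 probes, Mup6 and Mup9 thus had differences within the range of the members (-1.42 to -0.67) and Mup11 did not. None passed the test. The group means of Mup6 were lower than those of every member, and the Mup6 and Mup9 probes share a run of 19 bases.

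Genes of pathways that act on Mup expression were compared from a list of growth hormone, thyroid, glucocorticoid and androgen signalling genes and liver factors. The list includes growth hormone axis genes such as Igf1, Igfals, Socs2 and Cish, so it is not one of Mup regulators only. Of 20 listed genes 19 were tested and 0 passed in limma. An unadjusted limma p below 0.05 was found for 0, against 783 of all 15514 named genes tested. The list's median difference was -0.02, with 10 genes below 0, against a median of -0.0071 over 15514 named genes. Bcl6, a repressor that opposes STAT5 in liver, stood at -0.95 in miR-223KO and -0.38 in WT (difference -0.58, SE 0.30, limma adjusted p = 0.984). Ghr, the growth hormone receptor, stood at -0.33 in miR-223KO and 0.03 in WT (difference -0.37, SE 0.22, limma adjusted p = 0.984), and its other probes read 0.16, 0.06, -0.29 and 0.06.

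Liver genes with sex-biased expression other than Mup genes showed no member past the test. In limma, an unadjusted p below 0.05 was found for 783 of all 15514 named genes tested. Of 20 male-biased genes tested, 0 passed in limma, and an unadjusted p below 0.05 was found for 5, all lower. Their median difference was -0.20, with 14 genes below 0, and the alternatives gave -0.31 (flagged spots left out) to -0.02 (median centring), with -0.06 when miR-223KO replicate 3 was left out and -0.08 when WT replicate 2 was. Slco1a1, a male-biased uptake transporter of hepatocytes, averaged -1.60 in miR-223KO and -0.03 in WT liver, a difference of -1.57 (SE 0.27, limma adjusted p = 0.184). It passed with flagged spots left out (limma adjusted p = 0.00251) and without WT replicate 3 (limma adjusted p = 0.00378). For Slco1a1 these settings are the same removal, with a difference of -1.88 in each. Both drop the WT replicate 3 value of -0.98, the WT value nearest to miR-223KO (the others were 0.57, 0.26 and 0.01). Susd4 differed by -0.94 (SE 0.27, limma adjusted p = 0.984). Of 16 female-biased genes tested, 0 passed in limma, an unadjusted p below 0.05 was found for 5, all higher, and 13 lay above 0. Their median difference was 0.39. It was 0.66 without WT replicate 4, 0.21 without WT replicate 1, 0.26 without WT replicate 2 and 0.21 with flagged spots left out. The cytochrome P450 genes Cyp3a16 and Cyp3a41a differed by 0.93 (SE 0.26) and 0.82 (SE 0.30), each with a limma adjusted p of 0.984. All 5 female-biased genes with an unadjusted limma p below 0.05 were Cyp2b or Cyp3a genes (Cyp2b10, Cyp2b13, Cyp3a16, Cyp3a41a and Cyp3a44). Tested genes of this list outside those 2 families ran from -0.15 for Cyp17a1 to 0.58 for Cyp2a4. Over the 8 arrays the mean of the male-biased genes had an r of 0.66 with the mean of the 5 Mup genes. That of the female-biased genes had an r of -0.75, the lowest of all gene lists, and the cholangiocyte markers had the highest, 0.78. These r are again descriptions, and they include the group difference with which the Mup genes were chosen.

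Other lipocalins, the wider family of carriers to which the Mup proteins belong, had a median difference of 0.04, with 7 of 15 tested genes below 0, and -0.19 in the authors' deposited table. None passed in limma (0 of 15). An unadjusted limma p below 0.05 was found for 3, all lower, against 783 of all 15514 named genes tested. Lcn10 averaged 0.42 in miR-223KO and 1.03 in WT liver (difference -0.61, SE 0.18, limma adjusted p = 0.984), and Lcn8 averaged 0.01 in miR-223KO and 0.57 in WT liver (difference -0.56, SE 0.24, limma adjusted p = 0.984). Both are known mainly from the epididymis.

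The hepatocyte genes, which mark the cells that make these proteins, were measured beside the members. Of 16 tested, 13 lay below 0 and 0 passed in limma. An unadjusted limma p below 0.05 was found for 3, all lower, against 783 of all 15514 named genes tested. The list's median difference was -0.22, and it was 0.09 with median centring, so its direction depended on the scaling. With flagged spots left out, 4 of these genes were tested, with a median of -0.61, and it was -0.34 without miR-223KO replicate 2. The mean log2 ratio of the list was 0.35 to 0.76 on miR-223KO arrays and 0.57 to 1.11 on WT arrays. As a mean, the liver markers were thus above the mixed reference on each array. Single markers were not always, such as Tat at -0.64 in miR-223KO replicate 4 and -0.65 in WT replicate 3. Fga, a fibrinogen chain, averaged 0.27 in miR-223KO and 1.16 in WT liver (difference -0.89, SE 0.20, limma adjusted p = 0.531). Apoc3, an apolipoprotein, differed by -0.53 (SE 0.20, limma adjusted p = 0.984), but its other probe read 0.04. The part of hepatocyte content in the Mup differences was not tested.

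Markers of other cell types had no member past the test in limma (0 of 39 tested over the 6 lists, with 6 at an unadjusted p below 0.05). Among all 15514 named genes tested, 783 had an unadjusted limma p below 0.05. Kupffer cell markers had a median difference of 0.37, with 7 of 8 above 0, and list means of -0.05 to 0.47 on miR-223KO arrays and -0.48 to 0.48 on WT arrays. The Kupffer median ran from 0.21 with flagged spots left out to 0.61 in the authors' deposited table. Clec1b stood at 0.56 (SE 0.19) and Csf1r, the receptor for a macrophage growth factor, at 0.54 (SE 0.20). Endothelial markers had a median of 0.12, with 7 of 8 above 0, and list means of -0.12 to 0.11 on miR-223KO and -0.35 to -0.04 on WT arrays. Ptprb stood at 0.63 and Lyve1 at 0.41. The other probe of Ptprb read -0.15 and that of Lyve1 0.44. Over the alternatives the endothelial median ran from 0.08 to 0.24 and the cholangiocyte median from -0.23 to -0.04. Cholangiocyte markers had a median of -0.16, with 5 of 6 below 0, list means of -0.42 to -0.05 on miR-223KO and -0.20 to 0.22 on WT arrays, Krt7 at -0.58 and Sox9 at -0.36. Stellate cell and fibroblast markers had a median of 0.02 over 7 genes, list means of -0.15 to 0.30 on miR-223KO and -0.46 to 0.33 on WT arrays, Col1a1 at 0.32 and Acta2 at 0.13. Neutrophil markers had a median of 0.02 over 6 of 8 listed genes, list means of 0.13 to 0.19 on miR-223KO and -0.05 to 0.10 on WT arrays, S100a9 at 0.61 and Ltf at 0.19. The neutrophil median was -0.05 without WT replicate 1, -0.08 over the 2 genes above background on all 8 arrays, and 0.20 without miR-223KO replicate 4.

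Salivary and lacrimal gland markers were included because Mup4 and Mup5 are known from those glands. Only 4 of 8 passed the filter on dim probes, with Bpifa2, Dcpp2, Aqp5 and Smgc below it. Their median difference was 0.14, with list means of 0.17 to 0.62 on miR-223KO and 0.20 to 0.37 on WT arrays, and Pip stood at -0.15 and Amy1 at 0.18. The median ran from -0.04 without miR-223KO replicate 2 to 0.24 without miR-223KO replicate 1. The part of these cell types in the Mup differences was not tested.

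**Figure D4:**
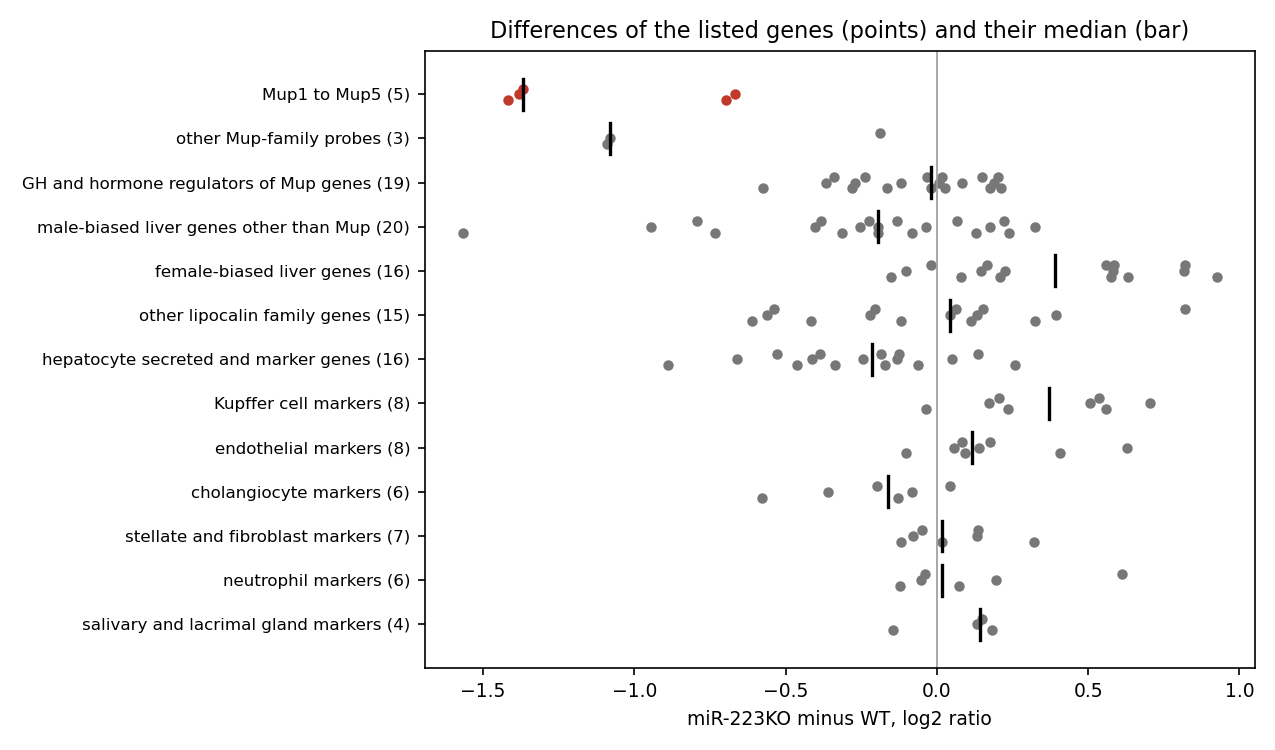
Difference in log2 ratio, miR-223KO minus WT, of Mup1 to Mup5 (red) and of the tested genes of each list (grey), with a bar for each median and the number of genes or probes in parentheses. The 5 members lie between -1.42 and -0.67, and single genes of the lists lie in that range or beyond it, among them Slco1a1 at -1.57, Susd4 at -0.94 and Fga at -0.89.

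The genes whose values over the 8 arrays most resembled the mean of the 5 members were sought among 15508 named genes outside the Mup family, each by its brightest tested probe. The closest was Ptchd3 (Pearson r 0.97, Spearman rho 0.93), followed by Lmod1 (0.95 and 0.88), Satl1 (0.95 and 0.93), Naa11 (0.94 and 0.98), Vsig2 (0.94 and 0.81) and Bmp7 (0.94 and 0.83). Ptchd3 averaged -0.28 in miR-223KO and 0.27 in WT liver, and Lmod1, a muscle actin regulator, -0.40 in miR-223KO and -0.14 in WT liver. The 6 genes resembled the members in their pattern over the arrays and not in the size of the difference. For all but Lmod1 every miR-223KO value lay below every WT value, as for 1.22% of all probes tested. That is the contrast with which the members were chosen. Of the 6 genes, 4 were dim, with a mean log2 signal of 7.33 to 7.79 against at least 14.24 for the members. With so many genes and 8 arrays, such values are descriptions only.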

How the data were processed

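Scanner files and a table of log2 ratios were used. Agilent Feature Extraction 12.0.3.1 read the scans on a grid of build mm9, per the file headers, and the deposited median spot and background values are intensity. Per the file headers, the deposited LogRatio is the log10 of the processed Cy5 over Cy3 signal. The authors' deposited table of 40646 probes holds log2 values, and its deposited log2 fold change is the difference of the group means, miR-223KO minus WT (to 5.2e-07). Its signed and unsigned fold columns (ratio) were not used.

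From the median signals, background was corrected with normexp (offset 50), flagged local backgrounds being replaced by the array's median, and log2 ratios were normalised by loess in limma 3.58.1 (R 4.3.3), with controls and flagged spots at weight 0. Flagged spots were kept, and the spots of a probe averaged. Probes were tested with lmFit and eBayes (two-sided, Benjamini-Hochberg, threshold 0.05) if their Cy5 signal exceeded background clearly (the software's own call) on 4 or more of 8 arrays. The fit was checked on simulated data with known changes. Probes were named through RefSeq accessions (28462) or the table's symbols. The text names the members, other Mup genes, for each list as many as 4 genes that passed (with none, the 2 of lowest p), and the 6 genes closest in pattern. Further list genes are named only to show the range or make-up of a list. The 11 context lists and the members were chosen with earlier results of these data known. Same-numbered samples did not deviate together, so the numbers were not treated as pairs. Alternatives covered flags, background, normalisation, the filter, slide, the replicate number, probe choice and each sample left out.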

Additional observations from a re-analysis of the deposited data

How the results depend on the processing

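The 5 members lay lower in miR-223KO under all alternatives that gave them a value, with a mean over the 5 genes of -1.54 to -0.67 against the reported -1.11, both ends being the values of a single slide. Values that moved by more than 1 SD were those of Mup1 (-2.03) and Mup2 (-0.69) with flagged spots left out and Mup3 with median centring (-0.98). Mup1 and Mup2 also did so within slide 1 (-0.64 and -0.55) and within slide 2 (-2.09 and -2.21). With flagged spots left out, the miR-223KO arrays of Mup1 were those of slide 2 only. All arrays left for Mup2 were on slide 1. Leaving out 1 sample gave -1.74 to -1.04 for Mup1, -1.61 to -1.10 for Mup2, -1.56 to -1.29 for Mup3, -0.92 to -0.35 for Mup4 and -0.98 to -0.41 for Mup5. With the replicate block the members kept their differences by construction (Mup1 -1.37). Same-numbered samples correlated at -0.02 to 0.06 in their deviations, and that block moved the count of lower probes past the test to 3.

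Against 1 higher and 0 lower probes past the test as reported (limma), the lower count was 1 with flagged spots left out, 2 with an offset of 16 (3 higher), 3 on probes above background on all 8 arrays, 3 with slide as a block, and 1 with the brightest probe per gene. Leaving out 1 sample gave 1 to 2 higher and 0 to 4 lower, with 4 lower without WT replicate 3, 2 without miR-223KO replicate 2, and 1 without miR-223KO replicate 1 or WT replicate 4.

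Of the other genes named, the Mup11 probe changed sign with median centring (0.0088) and without miR-223KO replicate 3 or WT replicate 2 (range with 1 sample left out -0.57 to 0.15). Acta2 changed sign without miR-223KO replicate 1 (range -0.049 to 0.29), Col1a1 without WT replicate 1 (range -0.014 to 0.51) and Amy1 without WT replicate 3 (range -0.029 to 0.32). The cause was not tested. Signal over background did not limit the members, which were well above background on all 8 arrays.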
